A study of Saccharomyces cerevisiae with 12 samples.

Results

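The genes described here are the 33 nuclear MRPL genes of Saccharomyces cerevisiae that lie outside chromosome III and encode proteins of the large subunit of the mitochondrial ribosome. The rule that chose them used gene name and chromosome and no measured value, but earlier results of these data were known. They are 33 of the 7126 genes in the count table. Their mRNA was measured by RNA sequencing in 12 libraries, which fall into 6 groups of 2 biological replicates. The groups were the evolved strains B184 and MH34 and the original strain AAC, each grown in carbon-limited glucose chemostats at dilution rates of 0.2/h and 0.1/h, where the dilution rate at steady state sets the specific growth rate. AAC belongs to the CEN.PK family, lacks the chromosomal triosephosphate isomerase gene TPI1, and secretes α-amylase from a multicopy POT1 plasmid with a TPI1 promoter. MH34 was isolated from AAC and B184 from MH34 after rounds of UV mutagenesis, so both carry the TPI1 deletion and the amylase plasmid as well, and each is a single isolate. At 0.1/h, ethanol had been given to the cultures of B184 and MH34 but not to those of AAC, so strain and ethanol cannot be told apart in the comparisons with AAC at 0.1/h. Nor can dilution rate and ethanol in the comparisons of rates within B184 or MH34, or in the rate dependence of their effects. The comparisons ask how the mRNA of this ribosomal subunit differed between strains selected for protein secretion and their ancestor, and between growth rates.

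Library totals ranged from 6040221 to 10785960 counts. Each member had between 294 and 2915 counts in every library (median 1121), and all 33 passed the filter on low counts that left 6044 genes for testing. Together the members made up from 0.375% to 0.533% of a library. TPI1, deleted in all 3 strains, had between 132 and 637 counts. Of the 8 genes encoded in mitochondrial DNA, none passed the filter, and the highest had 14 counts in a library. These mRNA libraries therefore do not show the level of mitochondrially encoded transcripts. In bulk RNA, fewer cells with a transcript and less of it per cell cannot be told apart. The p-values set a difference against the spread between cultures labelled as biological replicates. With 2 libraries a group, that spread was estimated over all 6 groups together, with information shared across genes.

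The mitochondrial ribosome translates the few proteins that mitochondrial DNA encodes, most of them core subunits of the respiratory chain and the ATP synthase. Its proteins are encoded in the nucleus, translated in the cytosol and imported. Their mRNAs are well known as targets of Puf3, a Pumilio RNA-binding protein that recognises a short motif after the stop codon and, in yeast grown on glucose, promotes the decay of the mRNAs it binds. Of the 33 members, 20 belong to families shared with bacteria and 13 are specific to mitochondria. The bacterial families include uL29m (MRPL4), uL22m (MRPL22) and uL24m (MRPL40) beside the exit of the polypeptide tunnel, uL10m (MRPL11) and uL11m (MRPL19) of the stalk that binds translation factors, and uL1m (MRPL1) of the L1 stalk. The mitochondria-specific proteins include mL38 (MRPL35) and mL46 (MRPL17) of the central protuberance and mL44 (MRPL3) and mL50 (MRPL13) near the exit.

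A match to the Puf3 motif TGTANATA was searched on the sense strand in the 250 bases after each stop codon, in the RefSeq R64 reference sequence, which is not the sequence of these strains. All 33 members held at least 1 match, whereas 910 of 6007 genes with such a window did (15.1%). Of the members, 24 had 1 match, 8 had 2 and 1 had 3, and the match nearest to the stop codon began between 13 and 136 bases after it (median 48). The matches nearest to the stop codon are shown for the 12 members whose values in every library are given below, with the motif in capitals between its neighbouring bases, because they are the feature that the members have in common.
MRPL23 (YOR150W, chrXV:612546-612553, plus strand): aatccaTGTATATAtttatc
MRPL50 (YNR022C, chrXIV:669730-669737, minus strand): caatctTGTATATAggcaac
MRPL39 (YML009C, chrXIII:251218-251225, minus strand): ttatccTGTAAATAagtaat
MRPL35 (YDR322W, chrIV:1111721-1111728, plus strand): gtatccTGTACATAtaaaat
MRPL33 (YMR286W, chrXIII:842260-842267, plus strand): tatataTGTATATAgtatta
MRPL44 (YMR225C, chrXIII:720865-720872, minus strand): caagccTGTAAATAatatat
MRPL31 (YKL138C, chrXI:185236-185243, minus strand): ttcatcTGTATATAgtttaa
MRPL10 (YNL284C, chrXIV:103086-103093, minus strand): ctcactTGTACATAccttaa
MRPL36 (YBR122C, chrII:483861-483868, minus strand): cagcctTGTATATAccgcaa
MRPL8 (YJL063C, chrX:315725-315732, minus strand): ttccctTGTAAATAtataga
MRPL22 (YNL177C, chrXIV:303543-303550, minus strand): tgattcTGTAAATAacaact
MRPL4 (YLR439W, chrXII:1015478-1015485, plus strand): ctctccTGTAAATAtatata

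**Figure D1:**
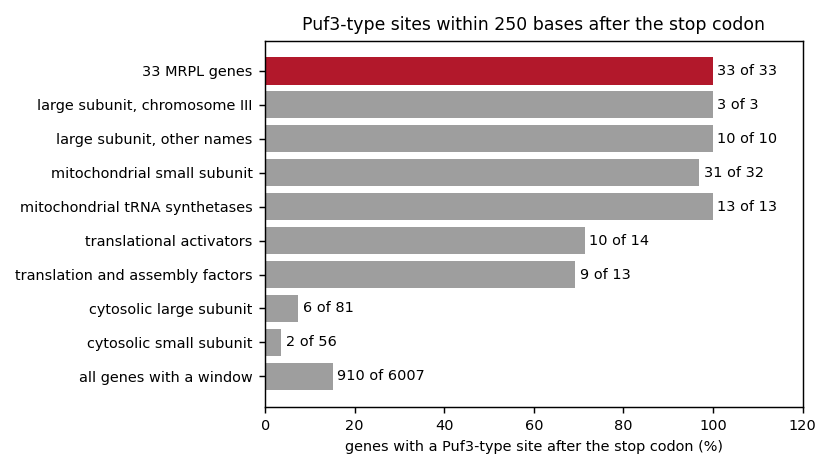
Share of genes (%) with a match to the Puf3 motif within 250 bases after the stop codon, for the 33 MRPL genes, other gene lists and all genes with such a window. All 33 members have a match, against 910 of 6007 genes, and few cytosolic ribosomal protein genes have one.

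The match was as frequent in some other groups of mitochondrial translation genes, less so in others, and infrequent in genes of the cytosolic ribosome. It was found in 31 of 32 genes of the mitochondrial small subunit and in 13 of 13 mitochondrial tRNA synthetase genes. It was found in 10 of 14 genes of translational activators (71.4%) and in 9 of 13 of translation and assembly factors (69.2%), against 6 of 81 genes of the cytosolic large subunit (7.41%) and 2 of 56 of the cytosolic small subunit (3.57%). The fifth base of the motif is free, and it was A in 16, T in 15, C in 11 and G in 1 of the 43 matches. Since every member carries a match, its presence does not separate members with different responses. In the promoters, taken as 250 bases before to 50 bases after the start codon and searched on both strands, 13 of 33 members held CCAAT (39.4%), the core bound by the Hap complex, beside 43.3% of all genes. TATAAA was held by 48.5% of the members and 45.2% of all genes, and GATGAG, part of an element of ribosome biogenesis genes, by 15.2% and 20.4%. AAAATTTT, from another such element, was in 1 member (3.03%), beside 9.04% of all genes. A match is a string of letters and not a measured binding site.

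The members were expressed above the middle of the transcriptome. As FPKM, computed per coding length and averaged over the 12 libraries, the median member had 202 FPKM and the median of 5712 genes tested with a length was 68.3 FPKM. The highest was MRPL31, which encodes mL60, with 573 ± 84.6 FPKM (SD over 12 libraries), and the lowest was MRPL35, which encodes mL38, with 113 ± 32.2 FPKM, a 5.1-fold range. MRPL51, which encodes mL43, was next to the highest with a mean of 478 FPKM (347 to 707 over libraries), and MRPL17, which encodes mL46, next to the lowest with 120 ± 35.6 FPKM. In both cases the values of the neighbours overlapped over libraries. The MRPL51 gene overlaps YPR099C on the other strand by 323 bases and MRPL19 overlaps YNL184C on the same strand by 113 bases, and how such reads were counted is not given in the sources used here, so both are uncertain. The other 31 members overlap no annotated gene.

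At 0.2/h, members were lower in both evolved strains than in AAC, and none was higher. In B184, 12 of 33 members were lower and 0 higher, with 17.7% of all genes tested lower and 18.4% higher (36.2% in either direction). The median log2 fold change of the members was -0.21, beside -0.02 for all genes. In MH34, 13 members were lower and 0 higher, with 15.7% of all genes lower and 17.4% higher (33.1% in either), and the median was -0.24 beside -0.01. Of these, 11 members were lower in both strains: MRPL3, MRPL4, MRPL7, MRPL8, MRPL10, MRPL20, MRPL35, MRPL36, MRPL40, MRPL49 and MRPL51. These were 91.7% of the members lower in B184 and 84.6% of those lower in MH34. Over all genes, 791 were lower in both strains (13.1%), which was 73.8% of those lower in B184 and 83.4% of those lower in MH34. The strains share their AAC libraries, so the shared calls are not independent of each other.

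MRPL10 (YNL284C), which encodes uL15m, had the largest difference in both strains at 0.2/h. It had 197 and 196 CPM (counts scaled to library size, with TMM) in B184, 214 and 181 CPM in MH34, and 325 and 284 CPM in AAC. All 4 libraries of the evolved strains were below both AAC libraries. Its log2 fold change was -0.63 ± 0.10 (SE) in B184 (edgeR adjusted p = 0.00098) and -0.62 ± 0.10 in MH34 (edgeR adjusted p = 0.0012). MRPL8 (YJL063C), which encodes bL17m, had 169 and 181 CPM in B184, 183 and 149 CPM in MH34, and 272 and 222 CPM in AAC, again without overlap. Its log2 fold change was -0.50 ± 0.11 in B184 (edgeR adjusted p = 0.0053) and -0.57 ± 0.11 in MH34 (edgeR adjusted p = 0.0027). These counts rest on single libraries to some extent. For B184, 4 members were lower without AAC replicate 1, 3 without B184 replicate 1 and 5 without B184 replicate 2, and MRPL8 lost its call without B184 replicate 1 (edgeR adjusted p = 0.052). For MH34, 6 were lower without AAC replicate 1 and 7 without MH34 replicate 2.

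The 2 evolved strains were close to each other at 0.2/h. Between B184 and MH34, 0 of 33 members passed the edgeR threshold in either direction, 0 had an unadjusted p under 0.05 and DESeq2 called 0, and of all genes 0.0% were higher and 0.0165% lower. The log2 fold changes of the members ran between -0.08 and 0.17, with a median of 0.04 and a median standard error of 0.10. A difference within that error was not detectable here, and a larger one could also have missed the adjusted threshold.

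At 0.1/h, B184 again differed from AAC mainly by lower members. Of 33 members, 18 were lower and 0 higher, with 20.4% of all genes lower and 16.5% higher (36.9% in either), and the members' median was -0.33 beside -0.04 for all genes. MRPL4 (YLR439W), which encodes uL29m at the tunnel exit, had 153 and 157 CPM in B184 and 226 and 269 CPM in AAC, with no overlap (log2 fold change -0.68 ± 0.13, edgeR adjusted p = 0.0018). MRPL10 had 205 and 184.3 CPM in B184 and 279 and 324 CPM in AAC, a difference as large as at 0.2/h (log2 fold change -0.63 ± 0.11, edgeR adjusted p = 0.00093). Of the 18 members, 11 were also lower in B184 at 0.2/h, which was 61.1% of the 18 and 91.7% of the 12 lower at 0.2/h. Over all genes, 597 were lower at both rates (9.88%), which was 48.5% of those lower at 0.1/h and 55.7% of those lower at 0.2/h. The dependence of the B184 effect on the dilution rate, tested as an interaction, gave 0 of 33 members by edgeR and 0 by DESeq2, with 2 at an unadjusted p under 0.05, and 3.26% of all genes higher and 2.23% lower (5.49% in either). Without B184 replicate 2 at 0.1/h, 11 members were lower than in AAC, and 12 without AAC replicate 2. In a fit of these 2 groups alone, 7 were lower.

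**Figure D2:**
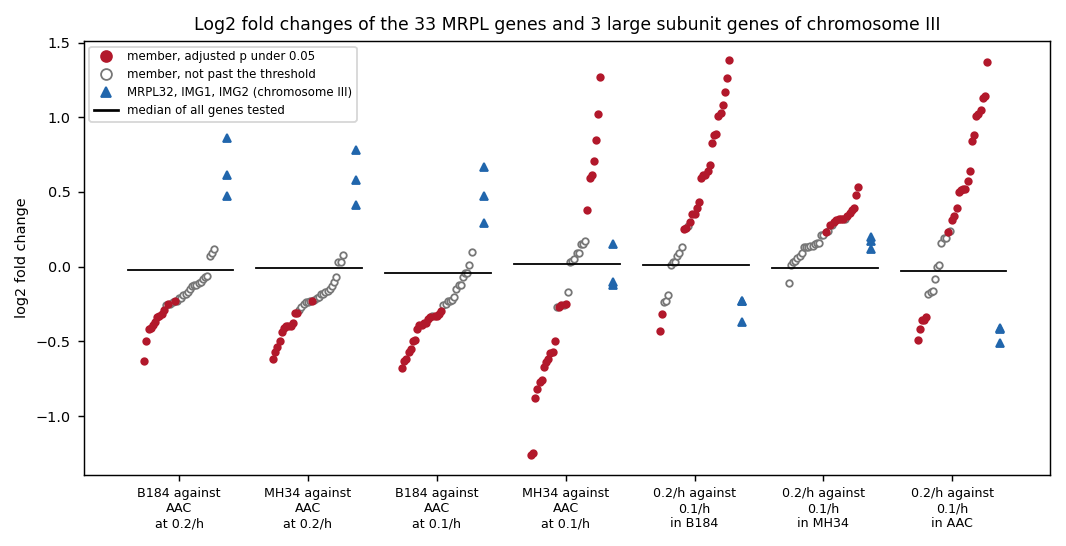
Log2 fold changes (vertical axis) of the 33 MRPL genes in 4 comparisons of strains and 3 of dilution rates, ordered by size within each comparison (filled points past the adjusted p threshold, open points not), with the 3 large subunit genes of chromosome III as triangles and the median of all genes as a line. Members spread between -1.26 and 1.27 in MH34 against AAC at 0.1/h, and between -0.68 and 0.10 in B184 against AAC at the same rate.

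Only in MH34 at 0.1/h did members pass the threshold in both directions against AAC. Genes as a whole did so in all 4 comparisons with AAC. In MH34 at 0.1/h, 7 members were higher (21.2%) and 15 lower (45.5%), with 35.5% of all genes higher and 33.3% lower (68.8% in either). The log2 fold changes had an SD of 0.63 among members, where it was between 0.16 and 0.19 in the other 3 comparisons with AAC. Over all genes the SD was 0.96 here and between 0.67 and 0.72 in the other 3. Among small subunit genes it was 0.55 here and between 0.18 and 0.21 in the other 3. The members that rose were MRPL23, MRPL33, MRPL39, MRPL50, MRPL17, MRPL9 and MRPL35. The falls included 6 of the 7 members assigned here to the side of the tunnel exit, with a median of -0.64 over the 7, and none of these rose. Of the 12 members assigned here to the bacterial type body of the subunit, with MRPL8 among them, 5 rose and 3 fell.

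MRPL23 (YOR150W), which encodes uL13m, had 176 and 181 CPM in MH34 at 0.1/h and 67.0 and 80.7 CPM in AAC. MRPL33 (YMR286W), which encodes uL30m, had 100 and 104 CPM in MH34 and 46.3 and 54.2 CPM in AAC. For both genes the MH34 libraries lay well above those of AAC, and the log2 fold changes were 1.27 ± 0.12 (edgeR adjusted p = 4.7e-06) and 1.02 ± 0.09 (edgeR adjusted p = 2.2e-06). MRPL4 had 101 and 106 CPM in MH34 and 226 and 269 CPM in AAC (log2 fold change -1.26 ± 0.13, edgeR adjusted p = 6.6e-06). MRPL8 had 134 and 132 CPM in MH34 and 303 and 331 CPM in AAC (log2 fold change -1.25 ± 0.11, edgeR adjusted p = 2.3e-06). Neither gene overlapped between the strains. MRPL16, which encodes uL16m, had a log2 fold change of 0.09 ± 0.09 and passed the threshold in none of the 4 comparisons with AAC.

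The MH34 effect depended on the dilution rate in 18 of 33 members, 7 with a higher and 11 with a lower effect at 0.2/h, with 26.6% of all genes in each direction (53.1% in either). The largest differences were -1.47 ± 0.17 for MRPL23 and 0.87 ± 0.18 for MRPL4 on the log2 scale. With library totals in place of TMM scaling, 11 were higher and 8 lower. The members' median was then 0.16 beside 0.24 for all genes, and with TMM it was -0.06 beside 0.02. At 0.1/h the evolved strains also differed from each other. Between B184 and MH34, 7 members were higher and 15 lower, with 29.1% of all genes higher and 33.6% lower (62.6% in either). With library totals 12 were higher and 12 lower. The members' median was then 0.01 beside 0.10 for all genes, and with TMM it was -0.13 beside -0.04. MRPL23 had a log2 fold change of -1.34 ± 0.12 and MRPL8 of 0.63 ± 0.11. Ethanol had been added to the cultures of both strains in this comparison.

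The members lower than in AAC in all 4 comparisons were 6: MRPL4, MRPL8, MRPL10, MRPL36, MRPL40 and MRPL51. Of all genes, 5.29% were lower in all 4, which share AAC libraries within each rate. MRPL10 was the most even, with log2 fold changes between -0.63 and -0.62 in the 4, and it did not pass the threshold between dilution rates in any strain (0.01 in each). In contrast, 12 members were lower in 0 of the 4 comparisons (36.4%), as were 53.2% of all genes. These members included MRPL1, MRPL9, MRPL11, MRPL17, MRPL23, MRPL33, MRPL39 and MRPL50.

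**Figure D3:**
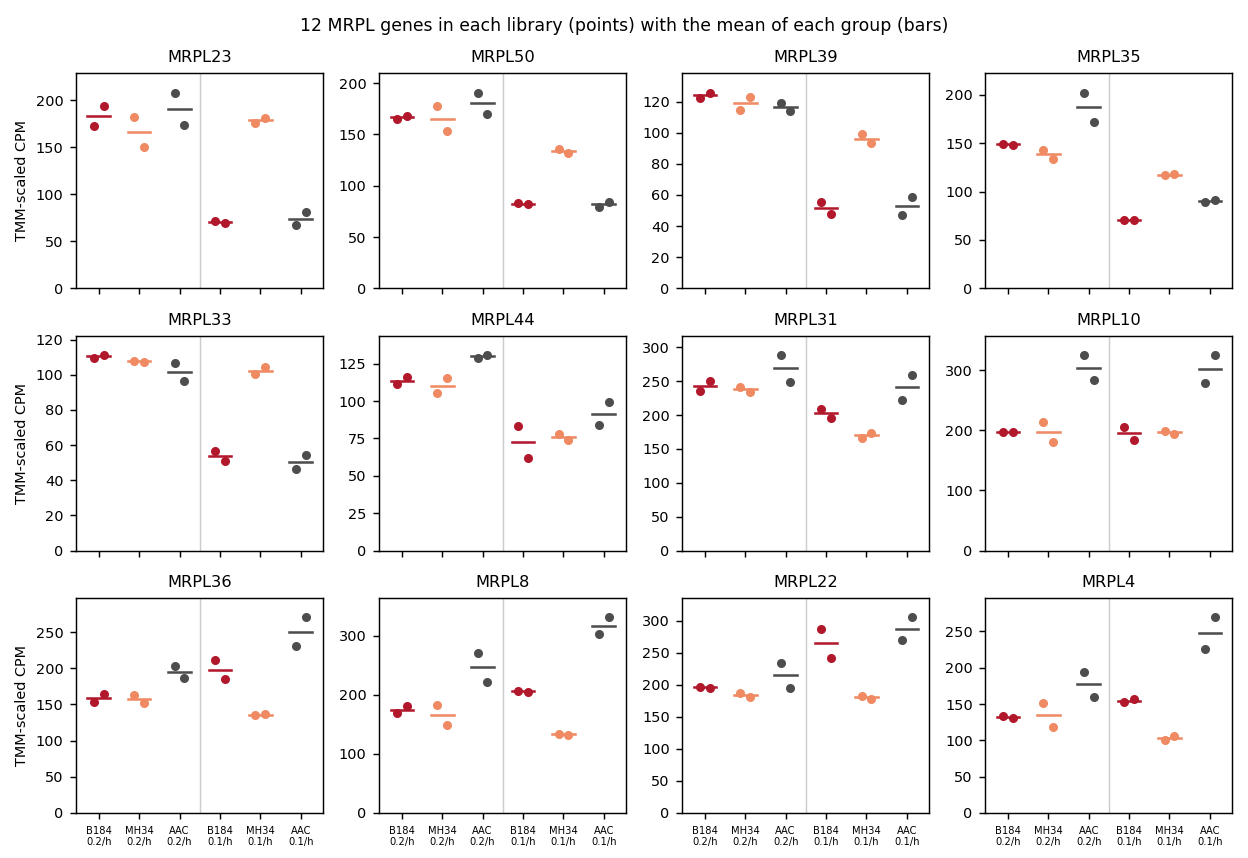
TMM-scaled CPM (vertical axis, from 0) of 12 MRPL genes in each of 12 libraries (points), with the mean of each group (bars), ordered by the change with dilution rate in AAC. MRPL23 has 176 and 181 CPM in MH34 at 0.1/h but between 67.0 and 80.7 CPM in B184 and AAC at that rate, and MRPL10 is lower in the evolved strains at both rates.

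At the higher dilution rate most members rose in AAC and B184. In AAC, 18 of 33 were higher and 5 lower at 0.2/h, with 32.7% of all genes higher and 35.5% lower (68.2% in either), and the members' median was 0.31 beside -0.03 for all genes. With library totals the counts were 16 and 9. In B184, 21 were higher and 2 lower, with 33.9% of all genes higher and 32.7% lower (66.6% in either), and the median was 0.35 beside 0.01. With library totals the counts were 19 and 5. Of the members, 17 rose in both strains and 2 fell in both, MRPL22 and MRPL36. Of all genes, 27.6% rose in both and 26.9% fell in both.

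MRPL23 rose most in both strains. In AAC it had 208 and 173 CPM at 0.2/h and 67.0 and 80.7 CPM at 0.1/h (log2 fold change 1.37 ± 0.12, edgeR adjusted p = 3e-06). In B184 it had 173 and 194 CPM at 0.2/h and 71.8 and 69.3 CPM at 0.1/h (log2 fold change 1.38 ± 0.12, edgeR adjusted p = 2.7e-06). The lowest library at 0.2/h was thus above the highest at 0.1/h by a wide margin in each strain. MRPL50, which encodes bL9m, had 191 and 170 CPM at 0.2/h and 79.3 and 84.3 CPM at 0.1/h in AAC (log2 fold change 1.14 ± 0.09, edgeR adjusted p = 8.1e-07). MRPL39, which encodes bL33m, had 122 and 126 CPM at 0.2/h and 55.7 and 48.0 CPM at 0.1/h in B184 (log2 fold change 1.26 ± 0.10, edgeR adjusted p = 1.3e-06). MRPL35, the lowest member by FPKM, had 202 and 172 CPM at 0.2/h and 89.2 and 91.4 CPM at 0.1/h in AAC, and 150 and 149 CPM against 71.1 and 70.2 CPM in B184.

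A few members went the other way. MRPL22, which encodes uL22m at the tunnel exit, had 235 and 195 CPM at 0.2/h and 270 and 305 CPM at 0.1/h in AAC (log2 fold change -0.42 ± 0.10, edgeR adjusted p = 0.0038). In B184 it had 197 and 195 CPM at 0.2/h and 288 and 242 CPM at 0.1/h (log2 fold change -0.43 ± 0.10, edgeR adjusted p = 0.0031). Both strains therefore had lower MRPL22 at the higher rate in every library. MRPL4 had 194 and 160 CPM at 0.2/h and 226 and 269 CPM at 0.1/h in AAC (log2 fold change -0.49 ± 0.12, edgeR adjusted p = 0.005), and this call was lost without AAC replicate 2 at 0.2/h (edgeR adjusted p = 0.051). MRPL36, which encodes bL31m of the central protuberance, had 154 and 164 CPM at 0.2/h and 211 and 185 CPM at 0.1/h in B184 (log2 fold change -0.32 ± 0.09, edgeR adjusted p = 0.01). That call was lost without B184 replicate 1 at 0.1/h (edgeR adjusted p = 0.1) and without B184 replicate 1 at 0.2/h (edgeR adjusted p = 0.079).

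In MH34 the members that passed the threshold between dilution rates were all higher at 0.2/h, and the log2 fold changes of the 33 ran between -0.11 (MRPL23) and 0.53. Of 33 members, 13 were higher at 0.2/h and 0 lower, with 13.5% of all genes higher and 13.3% lower (26.8% in either), and the median was 0.21 beside -0.01. MRPL44, which encodes mL53 and is the only member with an intron, had 105.5 and 115 CPM at 0.2/h and 78.2 and 74.2 CPM at 0.1/h (log2 fold change 0.53 ± 0.12, edgeR adjusted p = 0.011). MRPL31 had 241 and 234 CPM at 0.2/h and 166 and 174 CPM at 0.1/h (log2 fold change 0.48 ± 0.09, edgeR adjusted p = 0.0048). Neither gene overlapped between the rates, but the count of 13 depended on each library. It was 0 without MH34 replicate 1 at 0.1/h, 3 without replicate 2 at 0.1/h, 4 without replicate 1 at 0.2/h and 8 without replicate 2 at 0.2/h, and 20 with library totals. MRPL44 lost its call without 3 of the 4 MH34 libraries and MRPL31 without MH34 replicate 1 at 0.1/h. Across the strains, 8 members were higher at 0.2/h in all 3: MRPL3, MRPL17, MRPL19, MRPL25, MRPL35, MRPL39, MRPL44 and MRPL50. Of all genes, 7.5% were higher in all 3.

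The changes of the 33 members with dilution rate in B184 followed those in AAC, which come from other libraries. Across the members, Pearson's r was 0.98 and Spearman's rho 0.97, where r over all 6044 genes was 0.74. Between MH34 and AAC, r across the members was -0.16, and between MH34 and B184 -0.08, where r over all genes was 0.34 and 0.37. The members' changes in MH34 had an SD of 0.14 beside a median standard error of 0.10, which limits these r. In AAC and B184 the SD was 0.52 and 0.49. The difference between MH34 and AAC at 0.1/h also ran along the change with dilution rate in B184 (r = 0.93 across the members and 0.45 over all genes, with no library in common). Genes are not independent replicates and all values share the scaling of 1 fit, so these are descriptions.

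**Figure D4:**
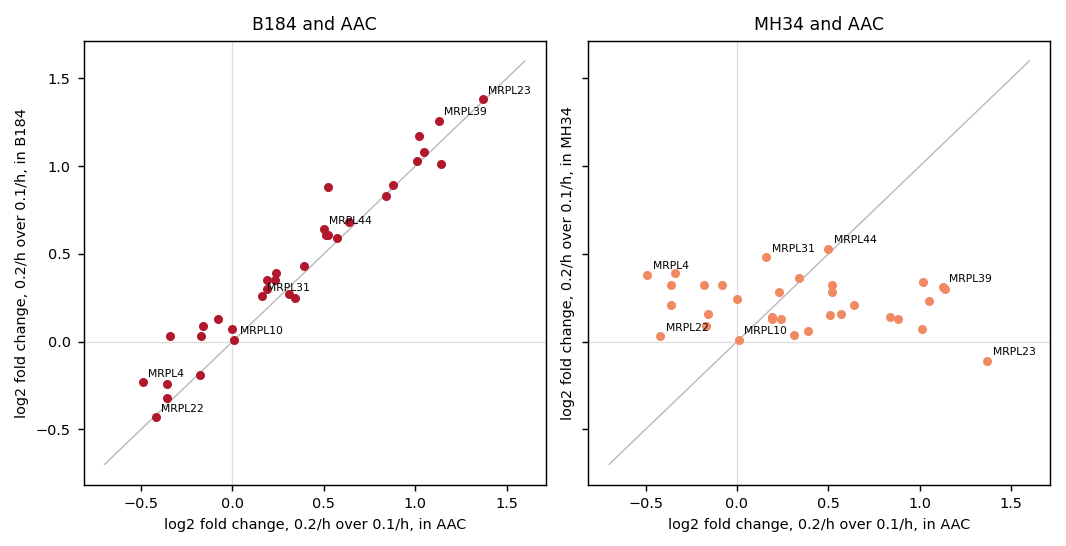
Log2 fold change of each of the 33 MRPL genes (points) between 0.2/h and 0.1/h in B184 (left) and MH34 (right), vertical axis, against the same change in AAC, horizontal axis, with the line of equality in grey. The points follow the line for B184 (r = 0.98) and do not for MH34 (r = -0.16), where the changes spread little (SD 0.14).

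The levels of the members were more alike at the higher rate in B184 and AAC. The SD of log2 FPKM among the 33 members was 0.63 and 0.65 at 0.2/h and 0.73 and 0.69 at 0.1/h in B184, and 0.61 and 0.62 at 0.2/h and 0.73 and 0.75 at 0.1/h in AAC. In MH34 it was 0.64 and 0.66 at 0.2/h and 0.66 and 0.65 at 0.1/h. Thus the 4 libraries of AAC and B184 at 0.1/h were above the other 8. The small subunit genes shared this trait. Their SD of log2 CPM was between 1.14 and 1.18 in these 4 libraries and between 0.81 and 0.96 in the other 8. By the same measure the members had between 0.66 and 0.74 in these 4 and between 0.40 and 0.47 in the other 8. The level in AAC at 0.1/h and the change with dilution rate in B184 had an r of -0.58 across the members (log2 FPKM), and the level in AAC at 0.2/h an r of 0.12 with the same change. With log2 CPM these r were -0.83 and -0.24.

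The summed level of the 33 members was lower in the evolved strains at either rate. It was 4600 and 4750 CPM in B184, 4710 and 4320 CPM in MH34 and 5820 and 5140 CPM in AAC at 0.2/h. At 0.1/h it was 3840 and 3570 CPM in B184, 3920 and 3910 CPM in MH34 and 4390 and 5000 CPM in AAC. Every library of the evolved strains was below both AAC libraries at the same rate.

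The 3 large subunit genes on chromosome III, MRPL32, IMG1 and IMG2, did not follow the 33. Their products, bL32m, bL19m and mL49, sit in the same subunit. The copy number of chromosome III was not measured. A difference along the whole chromosome therefore cannot be told apart from one of these 3 genes. Between B184 and AAC at 0.2/h all 3 were higher (median log2 fold change 0.61), as they were between MH34 and AAC (median 0.58), while 0 of the 33 members rose in either. At 0.1/h, 2 of 3 were higher in B184 than in AAC (median 0.47), and 0 of 3 passed the threshold in MH34 (median -0.10). IMG2 had 210 and 224 CPM in B184, 210 and 201 CPM in MH34 and 128 and 112 CPM in AAC at 0.2/h. IMG1 had 204 and 211 CPM in B184, 215 and 192 CPM in MH34 and 140 and 132 CPM in AAC at that rate. MRPL32 had 141 and 151 CPM in B184, 149 and 132 CPM in MH34 and 108 and 103 CPM in AAC. All the evolved libraries were above those of AAC.

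At 0.1/h, IMG2 had 272 and 238 CPM in B184, 186 and 171 CPM in MH34 and 155 and 166 CPM in AAC. IMG1 had 260 and 277 CPM in B184, 178 and 183.6 CPM in MH34 and 186 and 201 CPM in AAC. MRPL32 had 192 and 151 CPM in B184, 134 and 125 CPM in MH34 and 136 and 145 CPM in AAC. The summed level of the 3 genes, as a percentage of the sum of the 33, was 12.1 and 12.3 in B184, 12.2 and 12.1 in MH34 and 6.46 and 6.73 in AAC at 0.2/h. At 0.1/h it was 18.9 and 18.7 in B184, 12.7 and 12.3 in MH34 and 10.9 and 10.2 in AAC. With dilution rate, all 3 genes fell in AAC and 2 of 3 in B184, where most of the 33 rose.

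**Figure D5:**
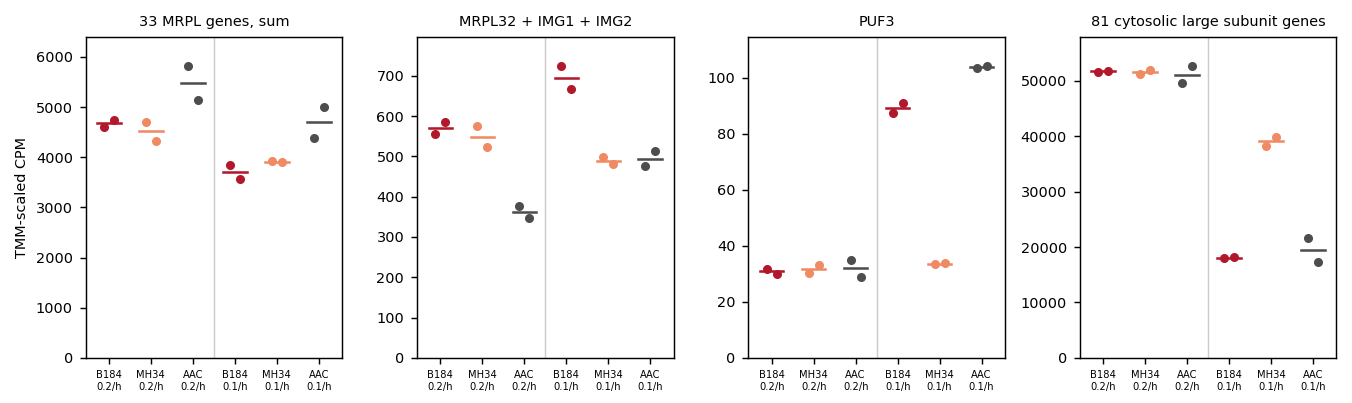
TMM-scaled CPM (vertical axes, from 0) in each library (points) with the group mean (bars) for the sum of the 33 MRPL genes, the sum of MRPL32, IMG1 and IMG2, PUF3, and the sum of 81 genes of the cytosolic large subunit. PUF3 is between 87.4 and 104 CPM in B184 and AAC at 0.1/h and between 28.9 and 35.0 CPM in the other 8 libraries.

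The other genes of the mitochondrial ribosome were called mostly in the same directions as the members. Of 32 genes of the small subunit, 14 were lower and 0 higher in B184 than in AAC at 0.2/h (median -0.22), 16 and 0 in MH34 at 0.2/h (median -0.24) and 19 and 0 in B184 at 0.1/h (median -0.31). In MH34 at 0.1/h, 18 were lower and 6 higher (median -0.33). With dilution rate, 17 were higher and 6 lower in B184, 9 and 0 in MH34 and 13 and 6 in AAC. Of 10 large subunit genes with other names, 3 were lower in B184, 4 in MH34 and 0 higher in either at 0.2/h. The 81 genes of the cytosolic large subunit had medians of 0.03 in B184 and 0.01 in MH34 against AAC at 0.2/h and of -0.10 in B184 at 0.1/h. In MH34 at 0.1/h, 73 of them were higher and 2 lower than in AAC (median 1.06). With dilution rate their medians were 1.61 in B184, 0.41 in MH34 and 1.43 in AAC.

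PUF3 itself was high in the 4 libraries of B184 and AAC at 0.1/h, in which the SD of log2 FPKM among the members was also highest. It had 31.8 and 30.0 CPM in B184, 30.3 and 33.2 CPM in MH34 and 35.0 and 28.9 CPM in AAC at 0.2/h. At 0.1/h it had 87.4 and 90.8 CPM in B184, 33.4 and 33.8 CPM in MH34 and 104 and 104 CPM in AAC. MH34 at 0.1/h was therefore at the level of the cultures at 0.2/h (log2 fold change against AAC -1.63 ± 0.09, edgeR adjusted p = 1e-07). The part of PUF3 in the changes of the members was not tested. The 786 tested genes outside mitochondrial translation that also hold the motif had a median of -0.06 in MH34 against AAC at 0.1/h. For the 4802 such genes without it the median was 0.02. Of those with the motif, 252 were higher (32.1%) and 293 lower (37.3%), beside 36.7% and 33.4% of those without. In AAC between the rates the medians were -0.01 with the motif and -0.05 without. There, 273 with the motif were higher (34.7%) and 281 lower (35.8%), beside 32.3% and 37.2% of those without. In B184 between the rates the medians were 0.04 with the motif and -0.03 without. There, 291 with the motif were higher and 243 lower, beside 1605 and 1660 without. What part PUF3 had in these values was not tested.

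Of the other regulators, HAP3, a DNA-binding subunit of the Hap complex that activates respiratory genes, and SFP1, an activator of cytosolic ribosomal protein genes, were lower in MH34 than in AAC at 0.1/h, with log2 fold changes of -1.68 ± 0.10 and -0.94 ± 0.08. Both were also lower in B184 at 0.1/h, at -0.72 ± 0.10 and -0.32 ± 0.08. HAP5, another subunit of the complex, was at -0.43 ± 0.13 in B184 and -0.86 ± 0.13 in MH34 at 0.1/h. HAP3 was also lower at 0.2/h, at -0.36 ± 0.10 in B184 and -0.38 ± 0.11 in MH34, as was HAP5 in MH34 (-0.41 ± 0.14), whereas HAP5 was at -0.16 ± 0.13 in B184 and did not pass the threshold. HAP2 passed the threshold in none of the 4 comparisons with AAC. HAP4, the activating subunit, was lower in B184 and in MH34 than in AAC at 0.2/h, with a log2 fold change of -0.35 ± 0.11 in each. RPO41 and MTF1, the mitochondrial RNA polymerase and its initiation factor, passed the threshold in none of the comparisons with AAC.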

How the data were processed

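RNA of 12 chemostat cultures was sequenced by the authors from stranded mRNA libraries (paired reads, Illumina NextSeq), mapped to Ensembl R64-1-1 and counted with the nf-core RNA-seq pipeline. The submitters' processing notes list TopHat2 2.0.12, Cufflinks 2.2.1 and Subread 1.4.6. Whether strand was used, and how multi-mapping reads were handled, is not given in the sources used here, which leaves overlapping genes uncertain. The deposited values are raw read counts per gene, not normalized by the authors, for 7126 genes.

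Counts were scaled by TMM and tested in edgeR 4.0.16 (R 4.3.3) with robust quasi-likelihood fits of the 6 groups, after edgeR's filter by group (6044 genes), with Benjamini-Hochberg adjustment over all genes tested and a threshold of 0.05. Two-group contrasts and 2 interactions gave 11 comparisons. The pipeline was tested on simulated counts. FPKM was computed from counts, library totals and RefSeq coding lengths, to which 6048 genes matched. Motifs were searched in the same R64 assembly. Alternatives were DESeq2 1.42.0, other scalings, filters and sample sets, a replicate block, and leaving out each library. Members named with values in every library were, in each comparison with AAC and between rates, the 2 largest rises and the 2 largest falls past the threshold, the highest and lowest by FPKM, and the chromosome III genes. The members and lists were chosen with earlier results of these data known. Figures were drawn with matplotlib 3.10.9.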

Additional observations from a re-analysis of the deposited data

Results flagged for a closer look

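The effect of MH34 against AAC differed between the dilution rates, by the interaction in edgeR at an adjusted p under 0.05, in 18 of the 33 members and in the 3 large subunit genes of chromosome III. The values are the log2 effect at 0.2/h minus that at 0.1/h. It was lower at 0.2/h for MRPL23 (-1.47), MRPL33 (-0.94), MRPL50 (-0.84), MRPL39 (-0.82), MRPL35 (-0.82), MRPL9 (-0.74), MRPL7 (-0.69), MRPL17 (-0.68), MRPL49 (-0.43), MRPL11 (-0.41) and MRPL1 (-0.36). It was higher at 0.2/h for MRPL15 (0.40), MRPL22 (0.45), MRPL13 (0.50), MRPL32 (0.53), MRPL36 (0.57), IMG2 (0.62), IMG1 (0.68), MRPL8 (0.68), MRPL37 (0.72) and MRPL4 (0.87). Of all genes tested, 53.1% differed in this way in either direction. MH34 cultures received ethanol at 0.1/h and not at 0.2/h, and its part in these differences cannot be told apart from that of the dilution rate.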

How the results depend on the processing

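Of 77 counts of called members under alternatives other than leaving out a library, 72 stayed within 1.5 times. The exceptions were B184 against AAC at 0.1/h with only the groups compared (7 instead of 18), MH34 against AAC at 0.2/h with only the groups compared (8 instead of 13) and with library totals (8), the rates in MH34 with library totals (20 instead of 13), and the rate dependence of the B184 effect with library totals (1 instead of 0). Leaving out each library gave between 20 and 25 called members for MH34 against AAC at 0.1/h, 11 and 23 for B184 against AAC at 0.1/h, 6 and 15 for MH34 against AAC at 0.2/h, 3 and 13 for B184 against AAC at 0.2/h, 17 and 21 for B184 against MH34 at 0.1/h, 0 and 0 for that pair at 0.2/h, 20 and 25 for the rates in AAC, 0 and 8 in MH34, 19 and 21 in B184, 14 and 20 for the rate dependence of the MH34 effect and 0 and 1 for that of B184. The lone library left in a group was assumed to vary like the others. Of 220 values of named members under alternatives, 212 kept direction and call, 8 lost the call and 0 changed direction. Library totals moved the median of all genes by between -0.15 and 0.22 on the log2 scale, so members are best read relative to it. Replicate numbers did not pair the libraries (correlations of deviations between -0.201 and 0.371 over 15 pairs of groups), and with the replicate block the counts were 22, 18, 13, 11, 22 and 0 for the strain comparisons in the order above, 23, 10 and 23 for the rates in AAC, MH34 and B184, and 18 and 0 for the rate dependences. The order of the members by level depended on length scaling. By mean CPM without it, MRPL31 ranked 2 instead of 1, MRPL35 19 instead of 33 and MRPL39 28 instead of 3. MRPL10 was then highest and MRPL19 lowest. Standard errors near 0.10 limit how small a difference can be seen, and causes of the differences between settings were not tested.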
